A study of Mus musculus with 48 samples.

Results

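Vascular mural cells are the cells that sit on the outer face of blood vessels: pericytes along capillaries and smooth muscle cells around arterioles, arteries and veins. Endothelial cells recruit them with the growth factor PDGF-B, which binds the receptor Pdgfrb on the mural cell, and Notch signals passed between both cell types keep the mural state. Pericytes share a basement membrane with the endothelium, carry a potassium channel that sets their membrane potential, and in the brain take part in forming the blood-brain barrier, while smooth muscle cells are set apart by the contractile proteins with which they narrow arterioles. In gliomas, vessels often carry mural cells that are loosely attached or unevenly spread.

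Here mural cells were defined by their transcripts. A cell was taken as mural when at least 500 genes were detected in it, when at least 2 of the 5 genes Vtn, Rgs5, Kcnj8, Pdgfrb and Acta2 had a unique molecular identifier (UMI, a count of 1 captured transcript), when it held at most 1 UMI of the endothelial gene Cldn5, and when it held none of the leukocyte gene Ptprc or of the tumor and neural progenitor gene Sox2. These values chose 141 of the 8726 cells with 500 or more genes in the whole-tumor mix; libraries of CD11b-positive cells alone were not used. The 5 genes are therefore described below and not tested against other cells.

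The study compared tumors grown from GL261 cells, a mouse glioblastoma line, that carried a short hairpin RNA against P-selectin (shSELP) or a negative control hairpin (shNC). The tumor cells were placed in the brains of young male C57BL/6 mice with no further treatment named for these groups. The mural cells are therefore taken to be host cells without a hairpin, which was not tested. Cells were isolated on day 16 by the labels, which differs by a day from the study's methods, and from pooled brains of each group. The CD11b-positive cells, the other CD45-positive cells and the remaining suspension, which holds the tumor cells and the vessels, were mixed in equal amounts, so a share of cells describes that mixture and not the tumor. Each group had 2 libraries, named shNC 1, shNC 2, shSELP 1 and shSELP 2, each listed as 8 sequencing entries. The sources do not say if each group's pair of libraries was made from different mice, so p-values measure the spread between libraries, which may be technical.

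The targeted gene was looked at first. Mural cells held 0 UMIs of Selp in all 4 libraries, where 3 UMIs would have been 23.4, 33.5, 9.66 and 13.3 CPM (counts-per-million, the UMIs of a gene relative to all UMIs of the mural cells of that library) in shNC 1, shNC 2, shSELP 1 and shSELP 2. In cells with Sox2 and no Ptprc, a set that includes the tumor cells, Selp had 1 UMI in each shNC library and 0 in each shSELP library. Endothelial cells, which normally make P-selectin, had 8, 12, 0 and 4 UMIs, or 58.7, 73.1, 0 and 9.95 CPM, and all kept cells 17, 25, 21 and 21 UMIs, in shNC 1, shNC 2, shSELP 1 and shSELP 2. The endothelial cells are likewise taken to be host cells without a hairpin, and their lower level in both shSELP libraries was not tested. A knockdown in the tumor cells was thus not detectable at this depth, and the groups rest on their labels.

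The 5 genes of the choice were mostly detected at high shares, which the choice itself brings about, so these shares describe the cells and do not show that they fit the label. Rgs5, a regulator of G-protein signalling and the best known pericyte gene of the brain, was detected in 88.7% of mural cells, against 0.489% of T cells. Pdgfrb was detected in 87.9% and 0.326%, Vtn, which encodes the matrix protein vitronectin, in 86.5% and 0.814%, the potassium channel subunit Kcnj8 in 70.2% and 1.25%, and smooth muscle actin, Acta2, in 34.0% and 2.33%. T cells, which should lack these genes, were sequenced more deeply, with a median of 6164.5 UMIs per cell against 2931 in mural cells. After each cell was thinned to 2000 UMIs, which left 112 mural cells, the shares in mural cells were 83.0% for Rgs5, 65.2% for Pdgfrb, 80.4% for Vtn, 58.9% for Kcnj8 and 31.2% for Acta2.

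Marker genes outside the choice of cells varied. Of the 15 such genes of the pericyte list 11 were detected in over 50% of mural cells, and of the 14 of the contractile list 5 were, down to 1.42% for Actg2. The light chain of smooth muscle myosin, Myl9, was detected in 89.4% of mural cells, 7.5% of endothelial cells and 0.869% of T cells, and in 79.5%, 4.82% and 0.394% after thinning. Higd1b, a mitochondrial protein gene that marks brain pericytes, was detected in 80.1% of mural cells and in 0.163% of T cells. Cald1, the actin-binding protein caldesmon, was detected in 95.7% against 2.23%, and in 35% of endothelial cells. The sulfonylurea receptor Abcc9, which forms a channel with Kcnj8, was detected in 58.9% against 0.326%. Both channel subunits were detected in the same cell in 79 of the 141 mural cells, Kcnj8 alone in 20, Abcc9 alone in 4 and neither in 38. The genes for these subunits are neighbours, 16248 bases apart on chromosome 6 of the mm10 build.

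The choice was least sharp at its lower edge. Of the 141 cells, 17 had 2 of the 5 genes, 28 had 3, 80 had 4 and 16 had all 5. Myl9 was detected in 41.2% and Higd1b in 5.88% of the 17 cells with 2 genes, against 96.0% and 90.3% of the 124 cells with 3 or more. Just outside, 95 cells met the other conditions with 1 of the 5 genes, and of these 13.7% had Myl9 and 0% had Higd1b. The conditions on Cldn5, Ptprc and Sox2 left out 53 of 194 cells with at least 2 of the 5 genes. Cldn5 alone or with another gene left out 33 of them, Ptprc 19 and Sox2 4.

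The cells at this edge also carried fibroblast genes, and they were not spread evenly over the libraries. Cells with at least 3 of the fibroblast genes Dcn, Lum, Col1a1, Col1a2 and Fbln1 numbered 19, and 14 of them were among the 17 cells with 2 of the 5 mural genes. They made up 6 of the 10 mural cells of shNC 1 and 13 of the 92 of shSELP 1, and none of the 10 of shNC 2 or the 29 of shSELP 2. In shNC 1 they held 84.7% of all mural UMIs, and in shSELP 1 29.8%. Library shNC 1 thus stood apart from the others. The gene lists whose estimates are counted below are given with all 141 cells and again with the 122 cells with fewer than 3 fibroblast genes, called the restricted set. Sums of the marker lists of other cell types are over all mural cells, save that the fibroblast and myeloid lists are given in both sets. Levels of single genes are given again where the restricted set changed whether the groups overlapped, and for a few other genes. That threshold for fibroblast-type cells was set with the marker lists, but its use to leave out mural cells was chosen after the data were seen.

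Seen over the whole fibroblast marker list, the summed level in mural cells was 39394 and 3374 CPM in shNC and 9678 and 2616 CPM in shSELP. Of its 11 genes, 10 were detected and Dpt was at 0. The most abundant was Mgp, matrix Gla protein, at 25039 and 2547 CPM in shNC against 3997 and 1929 CPM in shSELP. Mgp is also made by smooth muscle, and it was detected in 81.6% of mural cells, so it does not separate the 2 cell types. Dcn, which encodes decorin, had 4569, 0, 1533 and 26.6 CPM in shNC 1, shNC 2, shSELP 1 and shSELP 2. Without the cells with at least 3 fibroblast genes the list summed to 5259 and 3374 CPM in shNC and 3489 and 2616 CPM in shSELP, with shNC 1 still highest. As 5 genes of the list chose the cells left out, a fall of this sum was built in. The price of this restriction is depth, since only 4 cells and 19584 UMIs were left in shNC 1, against 89516, 218108 and 225524 UMIs in shNC 2, shSELP 1 and shSELP 2. Of those 19584 UMIs 1 cell held 14119. Levels of shNC 1 in the restricted set, and the calls made there, therefore rest largely on that cell.

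Other cell types were looked for through their marker lists. The lymphoid list summed to 31.2 and 22.3 CPM in shNC and 12.9 and 35.5 CPM in shSELP. The erythrocyte list summed to 0 CPM in 3 of the 4 libraries and to 3.22 CPM in shSELP 1, and the 3 pituitary hormone genes reached 23.4 CPM in shNC 1 and 0 elsewhere. The tumor and neural progenitor list summed to 195 and 212 CPM in shNC and 180.4 and 155 CPM in shSELP, most of it Nes, which encodes the filament protein nestin and is also made by vessel cells. The myeloid list summed to 1140.3 and 189.9 CPM in shNC and 815 and 709 CPM in shSELP with Cd74 first by the mean over libraries. In the restricted set it summed to 357 and 189.9 CPM in shNC and 1087 and 709 CPM in shSELP, where the groups no longer overlapped. Over all mural cells of shSELP 1, where C1qa was first at 225 CPM, a single cell with 9 of the 11 genes held 55.7% of the list's UMIs. This cell was also in the restricted set. So was a cell of shSELP 2 with 6 of the 11 genes and 1 pericyte gene, which held 41.9% of the list's UMIs in that library. Over all mural cells of shNC 1 and shNC 2 the top cell held 44.5% and 23.5%. The astrocyte list summed to 133 and 11.2 CPM in shNC and 171 and 8.87 CPM in shSELP. The oligodendrocyte list summed to 54.7 and 78.2 CPM in shNC and 1201 and 53.2 CPM in shSELP, and in shSELP 1 a single cell held 95.2% of its UMIs. That cell had 48959 CPM over this list and only 2 of the pericyte genes, so by these lists it was closer to an oligodendrocyte. It too was in the restricted set.

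The endothelial list, some of whose genes the choice of cells touched through Cldn5, summed to 305 and 1117 CPM in shNC and 2457 and 669.6 CPM in shSELP, against 17106 CPM in endothelial cells. Esam, a cell adhesion molecule, and Emcn, the sialomucin endomucin, were nonetheless detected in 63.1% and 37.6% of mural cells, and in 43.8% and 21.4% after thinning, against 0.543% and 0.217% of T cells. Scrublet called 61 of the 8726 kept cells doublets, and none of the mural cells. Yet 3 mural cells, all in shSELP 1, had at least 10 of the 13 endothelial genes, a threshold chosen after the values were seen, and summed to 13163.5 to 18136 CPM over the list, near the level of endothelial cells. They held 540 of the 763 endothelial-list UMIs of that library (70.8%). Whether they were 2 cells captured together, and their part in the results below, was not tested. Of 9167 barcodes in the table, 5 occurred in at least 2 libraries, and 1 of these belonged to a mural cell.

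**Figure D1:**
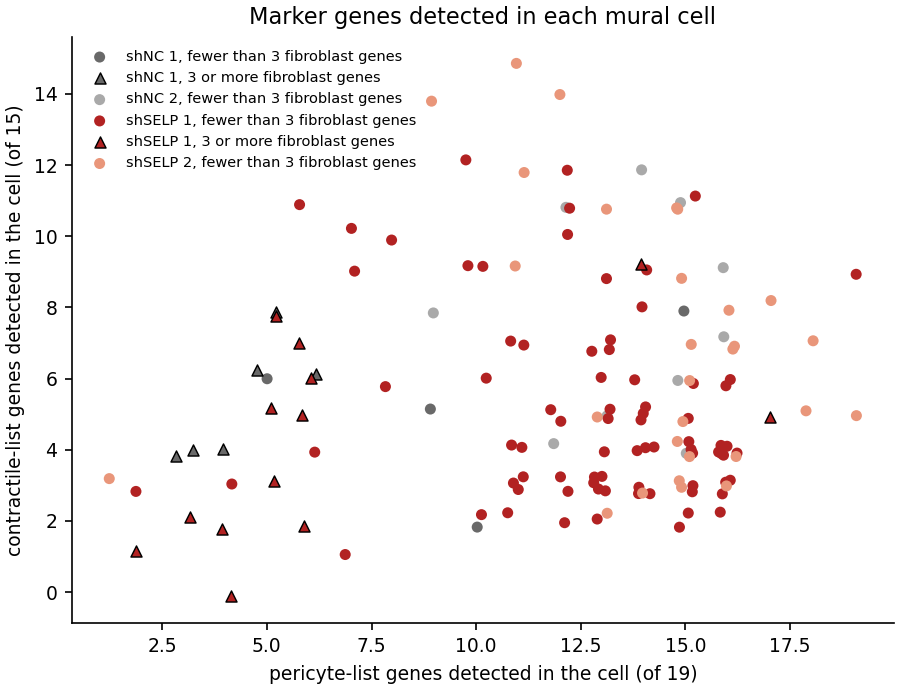
Each point is 1 mural cell, placed by how many of 19 pericyte genes (x axis, count) and of 15 contractile genes (y axis, count) were detected in it, with a small random shift to separate points. Color gives the library and triangles mark cells with at least 3 fibroblast genes, most of which lie at 6 or fewer pericyte genes.

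Mural cells varied along both marker lists. A mural cell had a median of 13 of the 19 pericyte genes, with a range from 1 to 19, and a median of 5 of the 15 contractile genes, with a range from 0 to 15. Cells with at least 3 fibroblast genes had a median of 5 pericyte genes although their median depth was 7998 UMIs, and the other mural cells had a median of 14 at 2789 UMIs. With cells thinned to 2000 UMIs the same medians were 2.5 and 12.

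Contractile genes were concentrated in a part of the cells. With a threshold of 8 contractile genes, chosen after the values were seen, 35 of 141 cells passed, of which 2 came from shNC 1, 5 from shNC 2, 17 from shSELP 1 and 11 from shSELP 2. Acta2 and Tagln, which encodes the actin-binding protein transgelin, were detected together in 35 cells, Acta2 without Tagln in 13 and Tagln without Acta2 in 5. In T cells the pair was detected together in 2 of 1842 cells. Myosin heavy chain 11, Myh11, a marker of mature smooth muscle, was detected in 35 mural cells, and calponin, Cnn1, in 4. In the 112 mural cells thinned to 2000 UMIs the shares were 31.2% for Acta2 and Tagln, 19.6% for Myh11 and 2.68% for Cnn1. In all 141 unthinned cells they were 34.0% for Acta2, 28.4% for Tagln, 24.8% for Myh11 and 2.84% for Cnn1. A dependence of the other counts on depth was not tested. Over 10000 UMIs were held by 21 mural cells, with 6, 4, 3 and 8 cells in shNC 1, shNC 2, shSELP 1 and shSELP 2.

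Compared with all other kept cells, the genes with the highest ratio in mural cells included genes of the contractile and pericyte lists. These ratios describe the chosen cells and were not tested. Tagln had a mean of 2652 CPM over libraries in mural cells and 5.57 CPM in other cells, a ratio of 404 after 1 CPM was added to each. The ratio was 393 for Vtn, 351 for Acta2 and 277 for Higd1b. Ndufa4l2, a mitochondrial complex subunit induced by low oxygen, reached 244 and Myl9 237. Cd248, the pericyte and stromal surface protein endosialin, reached 221. The signalling regulator Rgs4 followed at 217, Kcnj8 at 216, Myh11 at 200, the proteoglycan Bgn at 197, desmin (Des) at 187, Rgs5 at 183, Pdgfrb at 163, the endothelin receptor Ednra at 150 and the matrix protein Aspn at 146. The list of 20 also held Ccl11, Col1a2, Igfbp5 and Aldh1a3. The last pair belonged to the cells with fibroblast genes: all 647 Igfbp5 UMIs of shNC 1 were in those cells, and Aldh1a3 was seen in 3 mural cells, all in shNC 1.

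Endothelial cells, chosen by at least 3 of Cldn5, Pecam1, Cdh5, Flt1 and Esam and no Ptprc or Sox2, came from the same part of the mixture and are the nearest neighbours of mural cells in the vessel wall. The 10 genes with the highest ratio of mural to endothelial level were Dcn, Col1a1, Ccl11, Tnc, Mfap5, Aldh1a3, Col6a3, Postn, Col3a1 and Lox, most of them matrix genes. Dcn and Col1a1 helped to choose the fibroblast-gene cells, so their loss in the restricted set is built in. Of the others, Mfap5 and Aldh1a3 were there at 0 in all 4 libraries, and Lox had 0, 0, 22.9 and 57.6 CPM in shNC 1, shNC 2, shSELP 1 and shSELP 2. Some kept a level there, with 102, 357, 0 and 57.6 CPM for Col6a3, 0, 156, 27.5 and 22.2 CPM for Postn and 204, 290.5, 87.1 and 239 CPM for Col3a1, and Ccl11 and Tnc are given below. The 10 genes with the highest ratio the other way were Hbb-bs, Cldn5, Spock2, Pglyrp1, Hba-a2, Slco1c1, Slco1a4, Slc38a5, 8430408G22Rik and Srarp. Among these Slco1c1 and Slco1a4, which encode organic anion transporters of the blood-brain barrier, had 945 and 1235 CPM in endothelial cells and 3.60 and 5.21 CPM in mural cells. The globin genes Hbb-bs and Hba-a2 came almost wholly from endothelial cells of shSELP 1. As these genes partly chose the cells, no test was made.

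Mural cells were more numerous in both shSELP libraries than in both shNC libraries. There were 10 mural cells among 2183 kept cells in shNC 1, a share of 0.458% (exact 95% binomial interval 0.220% to 0.841%). In shNC 2 there were 10 among 2179, or 0.459% (0.220% to 0.842%). In shSELP 1 there were 92 among 2190, or 4.20% (3.40% to 5.13%), and in shSELP 2 29 among 2174, or 1.33% (0.895% to 1.91%). These intervals cover counting error only. The shSELP libraries lay above the shNC libraries, and differed from each other by more than the shNC libraries did.

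The mean share was 0.459% in shNC and 2.77% in shSELP, a difference of 2.31 percentage points, with an exact two-sided permutation p of 0.333. With 2 libraries against 2, 0.333 is the smallest p that the test can give, so it cannot reach 0.05. Among the 571, 550, 812 and 530 cells without a Ptprc UMI, which removes most of the sorted leukocytes from the denominator, the mural share was 1.75% and 1.82% in shNC 1 and shNC 2 and 11.3% and 5.47% in shSELP 1 and shSELP 2 (exact permutation p = 0.333). The number of vessel cells that entered each suspension and the amounts mixed cannot be told apart from the group.

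The ratio of mural to endothelial cells did not separate the groups. Endothelial cells numbered 20, 26, 331 and 63 in shNC 1, shNC 2, shSELP 1 and shSELP 2, so that they too were most numerous in shSELP 1. There were 0.5 and 0.385 mural cells per endothelial cell in shNC 1 and shNC 2, and 0.278 and 0.460 in shSELP 1 and shSELP 2. The groups overlapped, with means of 0.442 and 0.369 and an exact two-sided permutation p of 0.667. The direction of the difference turned when only the mural cells with fewer than 3 fibroblast genes were counted, from -0.0732 to 0.0572, and when shSELP 1 was left out, to 0.0180.

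**Figure D2:**
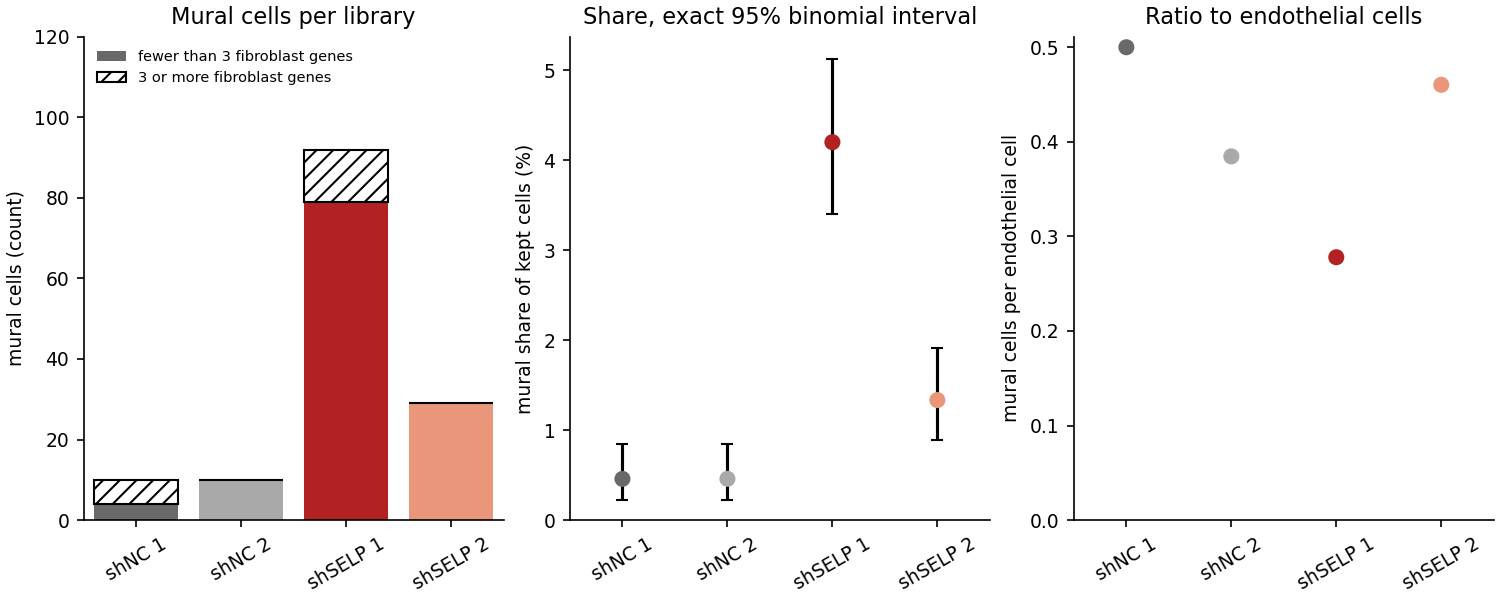
Left, number of mural cells per library (count), with the hatched part of each bar marking cells with at least 3 fibroblast genes. Middle, mural share of kept cells (%) with exact 95% binomial intervals; right, mural cells per endothelial cell, where the shNC libraries (0.5 and 0.385) and the shSELP libraries (0.278 and 0.460) overlap.

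Expression was compared between groups on UMIs summed over the mural cells of each library. The sums were 128040 UMIs in shNC 1, 89516 in shNC 2, 310484 in shSELP 1 and 225524 in shSELP 2, so that 1 UMI was worth 7.81, 11.2, 3.22 and 4.43 CPM. Median UMIs per mural cell were 16956.5, 5100.5, 2429 and 4352 in the same order. In the shNC libraries a gene's level could therefore rest on a few deep cells. The cells that carried a gene are counted below for some genes only, and not for Cxcl10, Ccl2 or Cxcl1.

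No gene passed an adjusted p of 0.05 with edgeR's quasi-likelihood test over 3166 genes, which is 0% of those tested. At an unadjusted p under 0.05 there were 312 genes, 160 of them higher in shSELP (5.05% of genes tested) and 152 lower (4.8%). DESeq2 called 6 genes on the same sums, Tnc, Ccl11 and Timp1 as lower and Ptn, Atp13a5 and Ttr as higher. Without the filter on low counts edgeR called 204. The edgeR count depended on single libraries: it was 1 without shNC 1, 146 without shNC 2, 60 without shSELP 1 and 95 without shSELP 2. Each of these fits leaves a group with 1 library, which is then assumed to vary like the other group.

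In the 122 mural cells with fewer than 3 fibroblast genes, 3 of 2813 genes passed (0.107%), and all 3 were lower in shSELP. At an unadjusted p under 0.05, 194 genes were higher (6.9%) and 134 lower (4.76%). The 3 genes were Ccl11, Tnc and F3, of which F3 was not among the genes chosen by rule and is named after its values were seen. DESeq2 called 13 genes in these cells. The edgeR count in these cells was 84 without shNC 1, 0 without shNC 2, 46 without shSELP 1 and 144 without shSELP 2, and 0 with the replicate number as a block, where none of the 3 genes passed.

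Ccl11, which encodes the eosinophil chemokine eotaxin, stood at 765 and 748 CPM in shNC against 90.2 and 17.7 CPM in shSELP over all mural cells, where it did not pass (log2 fold change -3.89, SE 0.74, adjusted p = 0.461). With the fibroblast-gene cells left out it had 664 and 748 CPM in shNC against 22.9 and 17.7 CPM in shSELP and passed (log2 -4.99, SE 0.54, adjusted p = 0.00938), with both shSELP libraries below both shNC libraries. Few cells carried it. Over all mural cells its 98 UMIs of shNC 1 lay in 7 cells, the 67 of shNC 2 in 4, the 28 of shSELP 1 in 6 and the 4 of shSELP 2 in 1, and 1 cell held 57.1%, 80.6%, 78.6% and 100% of them. Cells with fibroblast genes held 85 of the 98 and 23 of the 28, so the restricted call rests on 13 UMIs in shNC 1 and 5 in shSELP 1. Over all mural cells Ccl11 passed when shNC 2 (log2 -3.92), shSELP 1 (-5.38) or shSELP 2 (-3.16) was left out.

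Tnc, which encodes the matrix glycoprotein tenascin C, had 484 and 492 CPM in shNC against 9.66 and 8.87 CPM in shSELP. The values within each group nearly coincided, and the groups were far apart (log2 -5.74, SE 0.48, adjusted p = 0.0892). It passed with the replicate number as a block (log2 -5.74, adjusted p = 0.0284), which was the 1 call of the replicate block, and in the cells with fewer than 3 fibroblast genes (log2 -6.22, SE 0.80, adjusted p = 0.0202), at 306 and 492 CPM in shNC against 0 and 8.87 CPM in shSELP, but not in those cells with the block. Over all mural cells leaving out any 1 library also moved it past the threshold, with log2 fold changes of -5.63 without shNC 1, -5.76 without shNC 2, -5.68 without shSELP 1 and -5.66 without shSELP 2. Tnc did not pass with at least 3 mural genes (log2 -4.92) or with the highest Scrublet scores left out (log2 -9.64). The count behind Tnc was small, with 62 UMIs in 5 cells of shNC 1, 44 in 4 cells of shNC 2, 3 in 1 cell of shSELP 1 and 2 in 1 cell of shSELP 2. Cells with fibroblast genes held 56 of the 62 and all 3 of shSELP 1, so the restricted call rests on 6 UMIs in shNC 1 and 0 in shSELP 1. The cell with most Tnc held 72.6% of the UMIs of shNC 1 and 68.2% of those of shNC 2. The shSELP levels were at or under that of 3 UMIs.

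F3, the coagulation starter tissue factor, had 255 and 480.4 CPM in shNC against 13.8 and 26.6 CPM in shSELP in the cells with fewer than 3 fibroblast genes (log2 -4.17, SE 0.61, adjusted p = 0.0433). Over all mural cells it had 133 and 480.4 CPM in shNC against 80.5 and 26.6 CPM in shSELP and did not pass (adjusted p = 0.488). In shNC 2, 79.1% of its 43 UMIs came from 1 cell, and cells with fibroblast genes held 12 of its 17 UMIs in shNC 1 and 22 of its 25 in shSELP 1.

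The potassium channel and signalling genes that set the tone of mural cells mostly had higher estimates in shSELP, without passing. Of 27 genes in this list 25 were in the table and 17 were tested, of which 16 had a higher estimate in shSELP and 10 had an unadjusted p under 0.05, all higher. Over all genes tested, 1495 of 3166 had a higher estimate and 5.05% were higher at that p. The list includes Rgs5 and Kcnj8, which helped to choose the cells. Both are among the higher genes (log2 1.10 and 1.05), and neither had an unadjusted p under 0.05. The median log2 fold change of the list was 2.04, against -0.05 over all genes tested. In the 122 cells with fewer than 3 fibroblast genes, 16 of 16 were higher, 11 at an unadjusted p under 0.05 (1587 of 2813 and 6.9% over all genes), with a median of 1.65 against 0.13 for all genes.

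Rgs5 had the highest level of the list, at 242 CPM in shNC 1 and 4614 CPM in shNC 2, and 4992 CPM in shSELP 1 and 5516 CPM in shSELP 2. Library shNC 1 lay far below the other 3, which were close together. Without the fibroblast-gene cells Rgs5 had 1583, 4614, 6634 and 5516 CPM. Since detection of Vtn, Rgs5, Kcnj8, Pdgfrb and Acta2 chose the cells, the levels of these 5 genes were not free of the choice, and their differences between groups are described without weight on a test. Rgs4 had 31.2, 324, 1169 and 834 CPM in shNC 1, shNC 2, shSELP 1 and shSELP 2 (log2 2.48, SE 0.90, adjusted p = 0.492), and passed without shNC 2 (4.84) and without shSELP 2 (2.72), while it was 1.63 without shNC 1.

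Atp13a5, a cation-transporting ATPase with narrow expression in brain pericytes, was among the genes with the lowest p. It had 7.81 CPM in shNC 1 and 44.7 CPM in shNC 2, and 535 CPM in shSELP 1 and 328 CPM in shSELP 2, carried by 1, 2, 57 and 19 cells in that order. The shNC levels rested on 1 and 4 UMIs (log2 4.03, SE 0.70, adjusted p = 0.461). It was called by DESeq2, and by edgeR when shNC 2 (5.55), shSELP 1 (3.71) or shSELP 2 (4.35) was left out. P2ry14, a receptor for UDP-sugars, had 54.7 CPM in shNC 1 and 101 CPM in shNC 2, and 535 CPM in shSELP 1 and 372 CPM in shSELP 2 (log2 2.46, SE 0.46, adjusted p = 0.461). It was carried by 40%, 50%, 70.7% and 72.4% of mural cells in the 4 libraries, and by 7.44% of T cells. It passed without shNC 2 (2.90) and without shSELP 2 (2.71).

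Over all mural cells both subunits of the channel were lowest in shNC 1. Kcnj8 had 125, 536, 844 and 572 CPM in shNC 1, shNC 2, shSELP 1 and shSELP 2. Its levels with the fibroblast-gene cells left out were 766, 536, 1151 and 572 CPM, where the groups overlapped. Abcc9 had 23.4, 246, 586 and 523 CPM in shNC 1, shNC 2, shSELP 1 and shSELP 2 and 153, 246, 738 and 523 CPM with those cells left out, with both shSELP libraries above both shNC libraries in either set and no pass (adjusted p = 0.508 and 0.281). Gucy1a1, a subunit of the guanylate cyclase through which nitric oxide relaxes mural cells, was picked after its values were seen and had 31.2, 89.4, 293 and 324 CPM in shNC 1, shNC 2, shSELP 1 and shSELP 2 (log2 2.31, SE 0.52, unadjusted p = 0.00509, adjusted p = 0.461).

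The pericyte list as a whole, which holds several of these genes and 4 of the 5 that chose the cells, had 18 of 19 genes tested. Of these 16 had higher estimates in shSELP and 4 had an unadjusted p under 0.05, all higher, with a median log2 of 1.08, where 1495 of 3166 genes were higher and 5.05% were higher at that p over all genes tested. The 4 genes of the choice, Vtn, Rgs5, Kcnj8 and Pdgfrb, are among the higher ones (log2 1.43, 1.10, 1.05 and 0.18). None of these 4 had an unadjusted p under 0.05 in either set. With the fibroblast-gene cells left out 16 of 18 were higher, 4 were higher and 1 was lower at an unadjusted p under 0.05, and the median was 0.78. Over all genes of that set 1587 of 2813 were higher, 6.9% higher and 4.76% lower at that p, with a median of 0.13. The summed level of the list was 4100.3 and 18958 CPM in shNC and 24562 and 21390.2 CPM in shSELP, and 17004 and 18958 CPM in shNC and 32749.8 and 21390.2 CPM in shSELP with those cells left out. Both shSELP libraries were above both shNC libraries in either set, and shNC 1 moved most between the sets. These sums include the 4 genes that chose the cells, so the order is not free of the choice and no weight is put on it. Vtn had 999.7 and 5105 CPM in shNC against 10464 and 6567 CPM in shSELP over all mural cells and 6383, 5105, 14268 and 6567 CPM in the restricted set. Whether the fibroblast genes in shNC 1 account for the rest of these differences was not tested.

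**Figure D3:**
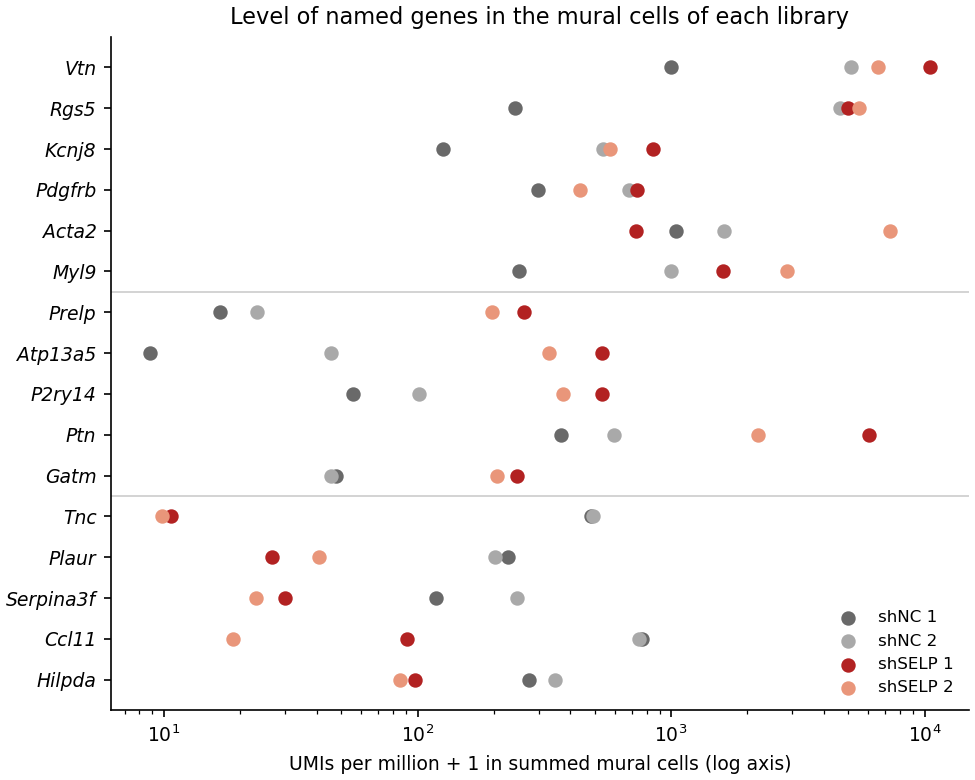
Level of the chosen genes in the mural cells of each library (CPM plus 1, log axis): the 5 genes of the choice and Myl9 at the top, then 5 genes higher and 5 genes lower in shSELP with the lowest unadjusted p. Each point is 1 library; in the lower 2 blocks the shNC points and the shSELP points do not overlap, which a pick by low p favours, and none of these genes passed the test over all mural cells.

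Contractile genes had higher estimates in shSELP as well, and those of Acta2 and Tagln followed 1 library. Of 15 genes 12 were tested, all 12 with a higher estimate, 2 of them higher at an unadjusted p under 0.05, against 1495 of 3166 and 5.05% over all genes, with a median log2 of 1.27. Without Acta2, which helped to choose the cells, the counts were 11 of 11 and 2. The summed level was 5608 and 11160.0 CPM in shNC and 8200.1 and 28325 CPM in shSELP, so that shSELP 2 was highest and shSELP 1 lay between the shNC libraries. Within the restricted set 11 of 12 had a higher estimate, 3 of them higher at an unadjusted p under 0.05, against 1587 of 2813 and 6.9% over all genes. The median was 0.72, against 0.13 over all genes. The sums there were 13889 and 11160.0 CPM in shNC and 10541 and 28325 CPM in shSELP, with shSELP 1 below both shNC libraries. The deepest cell of shNC 1 there had 17069 CPM over the list, so the shNC 1 sum rests mostly on it. Acta2 had 1047 CPM in shNC 1 and 1609 CPM in shNC 2, and 725 CPM in shSELP 1 and 7325 CPM in shSELP 2, and 4698, 1609, 999.5 and 7325 CPM in the restricted set, where its log2 went from 1.53 to 0.58. The 1652 Acta2 UMIs of shSELP 2 lay in 14 cells, 28.9% of them in 1 cell. In shNC 1, shNC 2 and shSELP 1 the top cell held 64.9%, 43.1% and 18.7% of the Acta2 UMIs. For Tagln the top cell held 57.1%, 33.6%, 15.8% and 36.2% in shNC 1, shNC 2, shSELP 1 and shSELP 2. Tagln followed, at 1695 and 1631 CPM in shNC against 796 and 6487 CPM in shSELP, with 12 of 29 cells of shSELP 2 carrying it, and 3829.7, 1631, 1109.5 and 6487 CPM in the restricted set. Without shSELP 2 the estimate of Acta2 turned to -0.95 and that of Tagln to -1.17, and without shSELP 1 Tagln passed, at 1.93. Cald1 had the highest mean level of the list, at 1687 and 3709 CPM in shNC against 3086 and 4031 CPM in shSELP, and its estimate turned to -0.05 without shNC 1. With the fibroblast-gene cells left out Cald1 had 1889, 3709, 3783 and 4031 CPM, where the groups no longer overlapped (log2 0.54, adjusted p = 0.679).

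Myl9 and Sncg, which encodes gamma-synuclein, were the contractile genes with an unadjusted p under 0.05, and in both genes the shSELP libraries were above the shNC libraries. Myl9 had 249.9 CPM in shNC 1 and 994 CPM in shNC 2, and 1607 CPM in shSELP 1 and 2869 CPM in shSELP 2 (log2 1.81, SE 0.68, unadjusted p = 0.0383, adjusted p = 0.492). In the restricted set Myl9 had 1328, 994, 2182 and 2869 CPM (log2 1.25, SE 0.43, adjusted p = 0.334), in which the order of the groups was kept. With cells over 10000 UMIs left out Myl9 had a log2 of 0.30. It passed when shSELP 1 was left out (2.24) and was 1.19 without shNC 1. Myh11 had 0, 235, 213 and 1277 CPM in shNC 1, shNC 2, shSELP 1 and shSELP 2, where 0 UMIs in shNC 1 allow up to 23.4 CPM, and 0, 235, 298 and 1277 CPM in the restricted set, where the groups no longer overlapped (adjusted p = 0.345).

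Smooth muscle genes are classically driven by serum response factor, which binds a short sequence known as the CArG box. Promoters from RefSeq, 250 bases before to 50 bases after each gene's start in build GRCm38.p6, were searched for it on both strands. Only the strict form CCWWWWWWGG was counted, where W is A or T. A box that deviates from this form or lies outside these bases was missed. A gene without a match may therefore still have a CArG box. A CArG box was found in 535 of 32851 promoters (1.63%) and in any promoter of 488 of 27025 genes (1.81%). Among genes tested in mural cells with a promoter in the table it was found in 49 of 2490 (1.97%). It was found in 1 of the 12 contractile genes with a promoter there and in 0 of 14 pericyte genes. The 1 gene was Myl9, whose promoter is shown because Myl9 was also among the contractile genes that kept both shSELP libraries above both shNC libraries. It spans chr2:156775214-156775513 on the plus strand, and capitals mark the CArG box. The match is a description and does not show binding.
Myl9 promoter: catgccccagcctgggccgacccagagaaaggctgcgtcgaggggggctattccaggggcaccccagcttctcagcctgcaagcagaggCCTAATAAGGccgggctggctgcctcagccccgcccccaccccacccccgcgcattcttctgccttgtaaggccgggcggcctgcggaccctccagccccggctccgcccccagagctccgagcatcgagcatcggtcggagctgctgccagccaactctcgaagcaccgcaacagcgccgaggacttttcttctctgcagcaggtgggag

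Receptors and ligands that keep mural cells on the vessel were tested next. In the PDGF and Notch list 8 of 15 genes were tested, all 8 with a higher estimate in shSELP and 1 higher at an unadjusted p under 0.05 (1495 of 3166 and 5.05% over all genes), with a median log2 of 0.74. Without Pdgfrb, which helped to choose the cells, 7 of 7 were higher. The counts were the same in the restricted set (1587 of 2813 and 6.9% over all genes), with a median of 0.77. Dll4 was at 0. The receptor Pdgfrb had 297 and 681 CPM in shNC against 734 and 435 CPM in shSELP, so the groups overlapped. Its estimate of 0.18 turned to -0.22 without shNC 1 and to -0.16 without shSELP 1. Notch3, the main Notch receptor of mural cells, had 46.9 and 246 CPM in shNC against 335 and 470.0 CPM in shSELP (log2 1.44, SE 0.70, adjusted p = 0.519), with both shSELP libraries higher, and passed without shNC 2 (2.96) but stood at 0.72 without shNC 1. The Notch target Hes1, named as the 1 gene of the list with an unadjusted p under 0.05, had 54.7 and 78.2 CPM in shNC against 251 and 195 CPM in shSELP (log2 1.65, SE 0.42, unadjusted p = 0.00867, adjusted p = 0.488).

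In the list of angiopoietin, TGF-beta and endothelin genes 8 of 18 were tested, 3 with a higher estimate and none at an unadjusted p under 0.05 (1495 of 3166, 5.05% higher and 4.8% lower over all genes), with a median log2 of -0.18. Within the restricted set 4 of 7 had a higher estimate, again with none at that p (1587 of 2813, 6.9% higher and 4.76% lower over all genes). Ednra, the receptor through which endothelin constricts mural cells, had 164 and 290.5 CPM in shNC against 103 and 270.5 CPM in shSELP. Its estimate turned from -0.36 to 0.06 without shNC 2 and to 0.25 without shSELP 1. S1pr3, a receptor for sphingosine 1-phosphate, had 15.6 and 168 CPM in shNC against 199.7 and 168 CPM in shSELP, where shNC 1 was the 1 low library, and it passed without shNC 2 (3.38) and stood at 0.14 without shNC 1.

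Fibrillar collagen and crosslinking genes mostly had lower estimates in shSELP, without passing, and shNC 1 alone stood apart. Of 16 genes 15 were in the table and 12 were tested, 2 with a higher estimate (1495 of 3166 over all genes). There were 0 higher and 5 lower at an unadjusted p under 0.05 (5.05% and 4.8% over all genes), and the median log2 was -2.11. The summed level was 12098 and 2927 CPM in shNC and 2248 and 2745 CPM in shSELP, so that shNC 1 stood above 3 libraries close to each other. With the fibroblast-gene cells left out the sums were 1532 and 2927 CPM in shNC and 1298 and 2745 CPM in shSELP. Of 8 genes tested there 3 had a higher estimate, 1 was higher and 1 lower at an unadjusted p under 0.05, with a median of -0.55. Over all genes of that set 1587 of 2813 were higher, 6.9% higher and 4.76% lower at that p, with a median of 0.13. Col3a1, a chain of type III collagen, was first in the list by the mean over libraries through shNC 1 alone, and had 3561, 290.5, 274 and 239 CPM in shNC 1, shNC 2, shSELP 1 and shSELP 2, and 204, 290.5, 87.1 and 239 CPM in the restricted set, where the groups overlapped. The fibroblast-gene cells held 452 of its 456 UMIs in shNC 1. It passed without shNC 2 (-3.93), shSELP 1 (-3.13) or shSELP 2 (-3.00), and stood at -0.17 without shNC 1. The collagen chaperone Serpinh1, at a higher level than Col3a1 in the other 3 libraries, had 1054, 1318, 715 and 767 CPM in shNC 1, shNC 2, shSELP 1 and shSELP 2 (log2 -0.78, SE 0.34, adjusted p = 0.511), and 715, 1318, 628 and 767 CPM in the restricted set, where the groups overlapped. The Serpinh1 estimate turned to 0.76 with cells over 10000 UMIs left out and to 0.03 in thinned cells.

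Basement membrane genes, whose products mural and endothelial cells lay down together, mostly had lower estimates in shSELP, without passing. Of 18 genes 16 were tested, 4 with a higher estimate (1495 of 3166 over all genes). At an unadjusted p under 0.05 there were 2 higher and 2 lower (5.05% and 4.8% over all genes), with a median log2 of -0.58. Without the fibroblast-gene cells the median was -0.29, with 6 of 15 estimates higher, and 1 higher and 0 lower at that p. Over all genes of that set 1587 of 2813 were higher, 6.9% higher and 4.76% lower at that p, with a median of 0.13. The summed level was 14159.6 and 10657 CPM in shNC and 6689.6 and 7587 CPM in shSELP, and 6434 and 10657 CPM in shNC and 6107 and 7587 CPM in shSELP in the restricted set. Sparc, a collagen-binding glycoprotein, had 4209.6 and 3016 CPM in shNC against 1836 and 2469.8 CPM in shSELP, Bgn had 1937 and 1619.8 CPM in shNC against 754 and 940.0 CPM in shSELP, and Col4a1, a chain of type IV collagen, had 1062 and 2033 CPM in shNC against 577 and 1038 CPM in shSELP. In all 3 both shSELP libraries were below both shNC libraries, and none passed (log2 -0.88, -1.20 and -1.01, adjusted p = 0.519, 0.492 and 0.519). In the restricted set only Sparc kept this order, at a smaller log2 of -0.29. There Bgn had 766, 1619.8, 527 and 940.0 CPM (log2 -0.67) and Col4a1 919, 2033, 601 and 1038 CPM (log2 -0.81), and the groups overlapped. With cells over 10000 UMIs left out the Sparc estimate turned to 0.81.

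Chemokine and adhesion genes mostly had lower estimates in the mural cells of shSELP. Of 21 genes in the list of chemokines and adhesion molecules 14 were tested, 4 with a higher estimate, 1 higher and 6 lower at an unadjusted p under 0.05, against 1495 of 3166, 5.05% and 4.8% over all genes, with a median log2 of -0.93. With the fibroblast-gene cells left out 3 of 13 had a higher estimate, 2 higher and 5 lower at that p, with a median of -1.60. Over all genes of that set 1587 of 2813 were higher, 6.9% higher and 4.76% lower at that p, with a median of 0.13. Of the 13 genes of the list Ccl11 passed, as above. The summed level of the list was 20275 and 15919 CPM in shNC and 6918 and 8416 CPM in shSELP, and 33344 and 15919 CPM in shNC and 3929 and 8416 CPM in shSELP in the restricted set.

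Cxcl9, which attracts T cells through the receptor Cxcr3, had 5537 CPM in shNC 1 and 6569 CPM in shNC 2, and 844 CPM in shSELP 1 and 2736 CPM in shSELP 2. Both shSELP libraries were below both shNC libraries (log2 -1.85, SE 0.61, unadjusted p = 0.0237, adjusted p = 0.492), and the gene passed without shSELP 2 (-2.94) and stood at -1.17 without shSELP 1. The size of its estimate was not stable, at -6.72 with cells over 10000 UMIs left out, -5.90 with the highest Scrublet scores left out and -3.02 in thinned cells. Cells with fibroblast genes held 517 of its 709 UMIs in shNC 1 and 253 of its 262 in shSELP 1. Cxcl9 was carried by 7, 5, 8 and 6 cells, and 1 cell held 46.4%, 53.6%, 96.6% and 60.0% of its UMIs. Cxcl10, a ligand of the same receptor, had 2554 CPM in shNC 1 and 4178 CPM in shNC 2, and 1836 CPM in shSELP 1 and 1720.4 CPM in shSELP 2 (log2 -1.01, SE 0.34, adjusted p = 0.492). Ccl2, which attracts monocytes, had 5451 CPM in shNC 1 and 1619.8 CPM in shNC 2, and 1301 CPM in shSELP 1 and 293 CPM in shSELP 2 (log2 -2.35, SE 0.91, adjusted p = 0.492). Ccl2 passed without shSELP 1 (-3.68) and without shSELP 2 (-1.60), and stood at -1.04 without shNC 1. Cxcl1, a neutrophil attractant, had 3233, 1676, 950.1 and 2652 CPM in shNC 1, shNC 2, shSELP 1 and shSELP 2, where the groups overlapped. Its estimate turned from -0.58 to 0.13 without shNC 1 and to 0.05 without shSELP 1.

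Interferon and MHC class I genes had lower estimates in shSELP, with 1 library low. Of 23 genes tested 2 had a higher estimate, 0 were higher and 2 lower at an unadjusted p under 0.05 (1495 of 3166, 5.05% and 4.8% over all genes), and the median log2 was -0.82. In the restricted set 2 of 22 had a higher estimate, 0 were higher and 3 lower at that p, and the median was -1.05. Over all genes of that set 1587 of 2813 were higher, 6.9% higher and 4.76% lower at that p, with a median of 0.13. The summed level of the list was 20103 and 21136 CPM in shNC and 7607 and 17080.2 CPM in shSELP, so that shSELP 1 was low and shSELP 2 was close to the shNC libraries, and 25633 and 21136 CPM in shNC and 5704 and 17080.2 CPM in shSELP in the restricted set. B2m, the light chain of MHC class I, had 5092, 4289.7, 1356 and 3361 CPM in shNC 1, shNC 2, shSELP 1 and shSELP 2 and H2-D1, a heavy chain, had 3327, 2871, 1143 and 2665 CPM in shNC 1, shNC 2, shSELP 1 and shSELP 2. Both passed without shSELP 2 (-1.90 and -1.55), and stood at -0.52 and -0.26 without shSELP 1. The free RNA of other cells also holds these genes, which other kept cells expressed at 4945 and 3206 CPM, and its share in the mural values was not tested.

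Early response genes, which cell dissociation also induces, had mostly higher estimates in shSELP. Of 20 genes tested 15 had a higher estimate, 6 were higher and 1 lower at an unadjusted p under 0.05, against 1495 of 3166, 5.05% and 4.8% over all genes, and the median log2 was 0.71. Without the fibroblast-gene cells 16 of 20 had a higher estimate, 6 were higher and 0 lower at that p, and the median was 0.73. Over all genes of that set 1587 of 2813 were higher, 6.9% higher and 4.76% lower at that p, with a median of 0.13. The summed level was 22860.0 and 26744 CPM in shNC and 46972 and 35978 CPM in shSELP, and 30279.8 and 26744 CPM in shNC and 51529.5 and 35978 CPM in shSELP in the restricted set, against 46691 CPM in endothelial cells. Fos had 3147 and 4200.4 CPM in shNC against 7897 and 5915 CPM in shSELP, Jun had 3600.4 and 3754 CPM in shNC against 7369 and 4993 CPM in shSELP and Junb had 2609 and 3441 CPM in shNC against 5917 and 4616 CPM in shSELP. In all 3 genes both shSELP libraries were above both shNC libraries, and none passed (adjusted p = 0.492, 0.540 and 0.519).

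Hypoxia and glycolysis genes showed no common direction over all mural cells, with 5 of 10 tested genes higher, none at an unadjusted p under 0.05 (over all genes 1495 of 3166 higher, 5.05% higher and 4.8% lower at that p) and a median log2 of -0.20. Within the restricted set all 8 tested genes had a higher estimate, none at that p, with a median of 0.17, where 1587 of 2813 genes were higher with a median of 0.13 over all genes. Ndufa4l2 had 289 and 972 CPM in shNC against 963 and 1038 CPM in shSELP, and 511, 972, 1339 and 1038 CPM in the restricted set, where the groups no longer overlapped (adjusted p = 0.575), and the glycolytic enzyme Aldoa had 594 and 827 CPM in shNC against 570.1 and 1019.9 CPM in shSELP. The Aldoa estimate of 0.07 turned to -0.04 without shNC 1 and -0.40 without shSELP 2. None of the 16 cell cycle genes had enough UMIs to be tested over all mural cells. In the restricted set 1 was tested, lower at an unadjusted p under 0.05 (4.76% over all genes) without passing. The list summed to 273 and 905 CPM in shNC and 229 and 173 CPM in shSELP, and 970.2 and 905 CPM in shNC and 128 and 173 CPM in shSELP in the restricted set. Mki67, the proliferation marker, was detected in 5 of 141 mural cells and Top2a in 10, or 3.55% and 7.09%, against 22.6% and 35.8% of T cells. After thinning the shares were 0.893% and 2.68% of mural cells and 11.8% and 19.1% of T cells.

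Beyond the lists, the genes with the lowest p included 3 others with higher and 3 with lower levels in shSELP. Prelp, a proteoglycan of basement membranes, had 15.6 CPM in shNC 1 and 22.3 CPM in shNC 2, and 261 CPM in shSELP 1 and 195 CPM in shSELP 2, from 2, 2, 81 and 44 UMIs (log2 3.45, SE 0.51, adjusted p = 0.461). Its shNC levels were under that of 3 UMIs. Ptn, the growth factor pleiotrophin, had 367 CPM in shNC 1 and 592 CPM in shNC 2, and 6042 CPM in shSELP 1 and 2208 CPM in shSELP 2, and was carried by 60%, 50%, 87.0% and 72.4% of mural cells and 1.95% of T cells (log2 2.99, SE 0.57, adjusted p = 0.461). Ptn in the restricted set had 1481, 592, 6332 and 2208 CPM (log2 2.23). Gatm, the first enzyme of creatine synthesis, had 46.9, 44.7, 245 and 204 CPM in the same order (log2 2.15, SE 0.43). Gatm in the restricted set had 255, 44.7, 307 and 204 CPM, where the groups overlapped (log2 1.44, unadjusted p = 0.0757). Prelp passed without shNC 2 (3.69) and without shSELP 2 (3.66), and Ptn without shSELP 1 (2.20) and without shSELP 2 (3.58).

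The urokinase receptor Plaur had 226 and 201 CPM in shNC against 25.8 and 39.9 CPM in shSELP (log2 -2.83, SE 0.46), the serine protease inhibitor Serpina3f had 117 and 246 CPM in shNC against 29.0 and 22.2 CPM in shSELP (log2 -2.85, SE 0.51), and Hilpda, a lipid droplet protein induced by low oxygen, had 273 and 346 CPM in shNC against 96.6 and 84.2 CPM in shSELP (log2 -1.87, SE 0.37). The adjusted p was 0.461 for each of them. In all 3 both shSELP libraries were below both shNC libraries. Plaur passed without shNC 2 (-2.92) and without shSELP 2 (-3.13). Without the fibroblast-gene cells, which held 27 of the 29 Plaur UMIs of shNC 1, Plaur had 102, 201, 27.5 and 39.9 CPM and Hilpda 1225, 346, 77.9 and 84.2 CPM (log2 -2.99). Those cells held 11 of the 35 Hilpda UMIs of shNC 1. A single other cell held 65.7% of the 35, so the 1225 CPM rest mostly on that cell. In shNC 1, shNC 2, shSELP 1 and shSELP 2 the top cell held 31.0%, 66.7%, 37.5% and 77.8% of the Plaur UMIs. For Serpina3f these shares were 60%, 50%, 100% and 60%, and for Hilpda 65.7%, 41.9%, 36.7% and 26.3%. With the highest Scrublet scores left out the log2 of Hilpda was -0.34. T cells, which may express these genes themselves, carried Plaur, Serpina3f and Hilpda in 7.38%, 12.8% and 61.6%. How many of the UMIs in mural cells were background RNA was not tested.

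The other DESeq2 calls, Ttr and Timp1, are named after their values were seen. Ttr, the thyroid hormone carrier made by the choroid plexus, had 15.6 and 78.2 CPM in shNC against 3317 and 182 CPM in shSELP and was detected in all 92 mural cells of shSELP 1 and in 49.5% of all T cells, so that its UMIs were not particular to mural cells. Timp1, an inhibitor of matrix proteases, had 5647 and 335 CPM in shNC against 109.5 and 88.7 CPM in shSELP, and 719 of its 723 UMIs in shNC 1 were in cells with at least 3 fibroblast genes. With those cells left out Timp1 had 204 and 335 CPM in shNC against 82.5 and 88.7 CPM in shSELP and did not pass with edgeR (adjusted p = 0.281).

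The last comparison asked whether mural cells differed between groups in another way than the endothelial cells of the same libraries. The test of that difference, with library as a block, called 0 of 4657 genes (0%) with edgeR, with 231 genes at an unadjusted p under 0.05 (4.96%). DESeq2 called 1 gene on the same design. With the fibroblast-gene cells left out edgeR called 1, without the filter on low counts 78, and without shNC 2 3, while it called 0 without shNC 1, shSELP 1 or shSELP 2.

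The DESeq2 call was Ubd, a ubiquitin-like gene induced by inflammatory cytokines, named after its values were seen. It had 305 and 1229 CPM in shNC against 261 and 337 CPM in shSELP in mural cells, 766 and 1229 CPM in shNC against 9.17 and 337 CPM in shSELP in the restricted set, and 557 and 1347 CPM in shNC against 21.1 and 24.9 CPM in shSELP in endothelial cells, with shSELP lower in endothelial cells by more than in all mural cells (log2 of the difference in response 4.01, edgeR adjusted p = 0.557). The edgeR call with fibroblast-gene cells left out was Cd74, the invariant chain of MHC class II, also named after its values were seen. It had 0 and 55.9 CPM in shNC against 156 and 452 CPM in shSELP in the restricted mural cells, where the 0 of shNC 1 allows up to 153 CPM, 797 and 55.9 CPM in shNC against 126 and 452 CPM in shSELP in all mural cells, where the estimate had the other direction (log2 2.85 and -0.77), and 1445 and 908 CPM in shNC against 140.0 and 283 CPM in shSELP in endothelial cells. Other kept cells expressed Cd74 at 9401 CPM, and the part of their free RNA in this difference was not tested. The mural cells that carried Cd74 were not counted. Over all mural cells its difference in response was 2.19 (unadjusted p = 0.0683) and did not pass.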

How the data were processed

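Single-cell counts were used as deposited: per the submitters' processing notes the authors made UMI counts per gene and cell with Cell Ranger 1.3 on mm10. The labels name the v2 kit, the study's methods a later one. The table of the whole-tumor mix held 20300 genes and 9172 cells, and 446 cells with fewer than 500 genes were left out. Kept cells held 22874762, 22546742, 17323095 and 25512125 UMIs in shNC 1, shNC 2, shSELP 1 and shSELP 2. No limit was set on mitochondrial UMIs, which stayed under 5% in every kept cell. Libraries and groups were taken from the names of the columns, which match the labels.

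UMIs were summed over mural cells per library and tested with edgeR 4.0.16 (quasi-likelihood test, TMM scaling, Benjamini-Hochberg adjustment over all genes tested, two-sided) in R 4.3.3, with DESeq2 1.42.0 as an alternative. The edgeR fits of the group difference and of the difference in response were tested on simulated data first, and DESeq2 was not. The response in mural cells was compared with that in endothelial cells by a class and group term with library as a block. Shares were compared by exact permutation over libraries. Scrublet scores came from scanpy 1.11.5. T cells, used for background, had at least 3 of 5 T cell genes. Gene positions came from GENCODE M21, which held 19998 of the genes once, and promoters from RefSeq.

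The members and lists were chosen with earlier results of these data known. Named genes were the 5 genes of the choice and Myl9; up to 5 genes in each direction with the largest change among those past an adjusted p of 0.05, with a mean of at least 100 CPM and groups that did not overlap, or, where fewer passed, those with the lowest unadjusted p; the 20 genes with the highest ratio to other cells and 10 each way to endothelial cells; and 2 to 4 genes with the highest level in each list. Other genes in the text, such as Abcc9, Sncg, Esam and Mki67, were named after their values were seen. Results for 2 genes of the lists are not reported here. Ranks of genes by UMI level only order the genes named, as UMI counts from the 3′ end are not amounts of RNA per gene. Alternatives were each library left out, a replicate block, no filter on low counts, DESeq2, thinning to 2000 UMIs, at least 3 mural genes, a limit of 10% mitochondrial UMIs, the 5% highest Scrublet scores left out and, chosen after seeing the data, fibroblast-gene cells or cells over 10000 UMIs left out.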

Additional observations from a re-analysis of the deposited data

How the results depend on the processing

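Results were computed again with each processing choice changed in turn. The fits that left out fibroblast-gene cells, or cells over 10000 UMIs, were chosen after seeing the data. For the test between groups the count of genes past the threshold, 0, became 3 with fibroblast-gene cells left out, 6 with DESeq2, 204 with no filter on low counts, and 1 with the replicate block; leaving out a library gave 1 to 146. It stayed 0 with at least 3 mural genes, the Scrublet scores, thinned cells and cells under 10000 UMIs. The mitochondrial limit left out no cell, so it tested nothing and is not counted. Without fibroblast-gene cells the 3 calls became 13 with DESeq2, 50 with no filter and 0 with the replicate block (233 genes at an unadjusted p under 0.05), and 0 to 144 with a library left out. For the difference from endothelial cells, 0 became 78 with no filter, 1 with DESeq2, 1 without fibroblast-gene cells and 0 to 3 with a library left out. The labels give both groups the numbers 1 and 2; deviations of same-numbered libraries correlated over genes at r = 0.228 for all mural cells and -0.0149 without fibroblast-gene cells, and the libraries are taken to share only a number.

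The difference in mural share was 6.62 percentage points among cells without Ptprc, and otherwise kept its direction at 1.90 to 2.22 in the settings that chose cells differently. It was 0.875 without shSELP 1 and 3.74 without shSELP 2. The difference in mural cells per endothelial cell, -0.0732, became 0.0273 with at least 3 mural genes, 0.0572 without fibroblast-gene cells and -3.34 with the highest Scrublet scores left out, where shNC 1 had a ratio of 7, and ran from -0.164 to 0.0180 with a library left out. Among 38 named genes with 439 values under other settings, 362 kept direction and side of the threshold, 58 in 22 genes passed it, and 19 in 9 genes turned direction. With cells over 10000 UMIs left out the log2 fold change was -0.53 for Acta2, 1.65 for Cxcl1, -0.37 for Tagln, 0.81 for Sparc and 0.76 for Serpinh1. Higher genes shrank there, to 0.30 for Myl9 and Fos, 0.69 for Gatm, 1.15 for Rgs4, 1.40 for P2ry14, 1.77 for Ptn and 2.36 for Atp13a5. The lower genes Tnc, Ccl11, Plaur, Serpina3f and Hilpda had too few UMIs to be tested there. Settings in which a gene was not tested are not among the 439 values. The log2 fold change was 0.0327 for Serpinh1 in thinned cells, -0.14 for Aldoa with the Scrublet scores and 0.11 for Ednra with at least 3 mural genes. With a library left out it ran from -0.22 to 0.83 for Pdgfrb, -0.95 to 2.46 for Acta2, -1.51 to 0.13 for Cxcl1, -0.0453 to 0.95 for Cald1, -1.17 to 1.93 for Tagln, -0.40 to 0.51 for Aldoa and -1.20 to 0.25 for Ednra. The cause of these changes was not tested. Depth limits the shNC libraries most, with 10 mural cells each.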
